A study of Mus musculus with 8 samples.

Results

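The angiopoietin and TIE receptor genes examined here were 6 of the 22520 genes in the deposited expression table, taken by gene symbol: the receptors Tek (TIE2) and Tie1, the receptor phosphatase Ptprb (VE-PTP), the ligands Angpt1 and Angpt2, and the angiopoietin-like gene Angptl2. The series holds 8 RNA sequencing libraries, 4 labelled LRP1 KO and 4 labelled wild type (WT). All came from C57BL/6 animals aged 14 postnatal days, and the labels name a mixture of what they call microvesicular cells of heart, liver and lung, where the study's methods speak of microvascular endothelium. According to the study, both genotypes of its sequenced mice were homozygous for a floxed Lrp1 allele. Its knockout mice additionally carried Cdh5-CreER, an inducible Cre recombinase driven by the promoter of an endothelial cadherin, while WT littermates lacked it. The study reports liver cells apart from heart and lung cells, where the labels name a mixture, so this genotype is taken from the study only. Endothelium was enriched by magnetic selection for PECAM-1. The inducing treatment and the number of animals behind each library are not given in the sources used here, so p-values measure the spread between these libraries, which may be partly technical.

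The TIE receptors are tyrosine kinases that sit almost exclusively on endothelial cells and on a subset of myeloid cells. ANGPT1, made largely by perivascular and other stromal cells, activates TIE2 and keeps vessels quiescent through PI3K, AKT and the restraint of FOXO1. ANGPT2 is made and stored by endothelial cells and can block or weakly activate TIE2 depending on context. TIE1 has no strong ligand of its own and modulates TIE2, VE-PTP removes phosphate from TIE2 and VE-cadherin, and ANGPTL2 resembles the angiopoietins in sequence without binding the TIE receptors.

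All 6 genes are annotated as protein coding in GENCODE M21 (GRCm38). Tek (ENSMUSG00000006386, plus strand, 94739289 to 94874976) and Tie1 (ENSMUSG00000033191, minus strand, 118471191 to 118490061) both lie on chromosome 4. Ptprb (ENSMUSG00000020154) is on the plus strand of chromosome 10, from 116275523 to 116389535. Angpt1 (ENSMUSG00000022309) occupies 42424723 to 42676977 on the minus strand of chromosome 15. Angpt2 (ENSMUSG00000031465, chromosome 8, minus strand, 18690263 to 18741562) lies wholly within Mcph1 on the opposite strand, and Angptl2 (ENSMUSG00000004105, chromosome 2, plus strand, 33216069 to 33247717) lies wholly within Ralgps1 on the opposite strand. Whether the counting used strand is not given in the sources used here, so reads of Angpt2 and Angptl2 cannot be told apart with certainty from those of the genes around them. Angpt1 is overlapped in part by the antisense gene Gm17473, and Ptprb holds Gm47625 and the snoRNA gene Gm26495 on its own strand. These 3 genes were not analysed here.

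The promoter table from RefSeq (GRCm38.p6) held 3 of the 6 genes, Tek, Tie1 and Angptl2. The 250 bases upstream of the Tek start (plus strand, chr4:94739039-94739288) are shown because Tek is the receptor at the centre of the pathway and because factors of the ETS family, which bind around GGAA, were among the genes examined below. The capitals mark the GGAA core, here read on the opposite strand as TTCC.
Tek upstream: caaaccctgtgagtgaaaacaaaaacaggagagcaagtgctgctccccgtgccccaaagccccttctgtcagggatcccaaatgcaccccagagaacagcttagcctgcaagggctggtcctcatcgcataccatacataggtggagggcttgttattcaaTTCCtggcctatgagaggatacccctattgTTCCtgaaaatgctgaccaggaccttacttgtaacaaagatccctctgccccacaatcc
GGAA occurred 2 times in this window counting both strands, against a median of 3 over 32851 such windows, of which 93.4% held it at least once. The GATA core occurred 1 time, and 53.6% of all windows held it.

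Lrp1 was 103 to 140 FPKM (fragments assigned to a gene, scaled by transcript length and library total) in WT and 2.79 to 7.72 FPKM in LRP1 KO, so the targeted gene matched the labels in all 8 libraries. The authors' quantile normalization removed sequencing depth, so no counting error can be given. Marker genes differed between libraries more than the genotype labels alone describe. The summed level of 18 endothelial markers was 188.1 to 200.0 FPKM in WT. In LRP1 KO libraries 1 to 4 it reached 673.3, 426.4, 495.9 and 195.9 FPKM, so LRP1 KO library 4 stood apart from its group and at the WT level. Macrophage markers (13 in the table) summed to 42.5 to 85.1 FPKM in WT and 220.3 to 552.1 FPKM in LRP1 KO, library 4 included. Mural markers (12) summed to 675.1 to 841.2 FPKM in WT and 1047 to 1646 FPKM in LRP1 KO. Acta2 (means 360.4 FPKM in WT and 711.1 in LRP1 KO) and Tagln (298.1 and 548.6) made up most of this sum. Of 9 mural markers tested, 8 were higher in LRP1 KO, 5 of them called, against 6.27% of all genes. Pdgfrb was lower (means 71.6 and 58.0 FPKM). Fibroblast markers (12) summed to 2494 to 3685 FPKM in WT and 2134 to 3344 FPKM in LRP1 KO. In WT the median level of an endothelial marker was 5.10 FPKM, against 52.9 FPKM for a fibroblast marker, in cells selected for an endothelial surface protein. Lrp1 was nonetheless 7.72 FPKM in LRP1 KO library 4, where fibroblast markers summed to 3344 FPKM. How an endothelial Cre would lower Lrp1 in such a mixture was not tested. Cardiomyocyte markers summed to 86.9 to 154.7 FPKM, of which Tnnt2 alone gave 81.6 to 152 FPKM, and lung epithelium markers to 3.63 to 7.50 FPKM over all libraries. None of the 8 hepatocyte and none of the 6 platelet markers had a WT mean of at least 1 FPKM. In bulk RNA, more cells of a type and more RNA per cell cannot be told apart, and the part of these marker differences in the results below was not tested beyond the fits given there.

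In WT cells the 6 genes fell into 4 levels whose ranges did not overlap. Angpt2 (13.1 to 21.4 FPKM) and Angptl2 (11.9 to 18.4 FPKM) were highest and overlapped in range. Tie1 followed at 3.13 to 4.38 FPKM and Tek at 0.914 to 1.49 FPKM, each apart from its neighbours. Ptprb (0.362 to 0.562 FPKM) and Angpt1 (0.288 to 0.540 FPKM) were lowest and overlapped. The median gene tested had a WT mean of 11.7 FPKM, so both TIE receptors were below it. In LRP1 KO the ranges were wider for each gene except Angptl2, and Angpt2 (9.12 to 80.1 FPKM) overlapped both Angptl2 (8.75 to 14.7 FPKM) and Tie1 (3.65 to 14.9 FPKM), while Ptprb (0.393 to 2.86 FPKM) overlapped Tek (1.18 to 2.38 FPKM).

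Tie1, Tek, Angpt2 and Ptprb were higher in 3 of the 4 LRP1 KO libraries than in any WT library and were within or below the WT range in the fourth. Angpt1 and Angptl2 did not show this split. With all 8 libraries weighted equally, none of the 4 genes that could be tested passed the threshold, where 13.6% of all genes tested did.

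Tie1 read 4.21, 4.38, 3.87 and 3.13 FPKM across WT libraries 1 to 4. The corresponding LRP1 KO values were 14.9, 8.25, 11.4 and 3.65 FPKM. The first 3 LRP1 KO libraries exceeded every WT library, and library 4 lay inside the WT range. The means were 3.90 ± 0.553 and 9.55 ± 4.78 FPKM (SD, n = 4 each). On the log2(FPKM + 1) scale, which understates changes of low genes, the difference was 0.98 (SE 0.32, 95% interval 0.26 to 1.70, limma adjusted p 0.0694).

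Tek read 1.17, 1.49, 1.14 and 0.914 FPKM across WT libraries 1 to 4. The corresponding LRP1 KO values were 2.38, 2.02, 1.82 and 1.18 FPKM. Again only library 4 overlapped WT, and the separation of the other 3 was narrower than for Tie1. The means were 1.18 ± 0.235 and 1.85 ± 0.502 FPKM (SD, n = 4 each), and the log2 difference was 0.38 (SE 0.14, 95% interval 0.06 to 0.69, limma adjusted p 0.0997).

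Ptprb read 0.362, 0.440, 0.562 and 0.462 FPKM across WT libraries 1 to 4. The corresponding LRP1 KO values were 2.86, 0.956, 1.73 and 0.393 FPKM. It reached 1 FPKM in 2 libraries only and was therefore below the filter for the test across genes. The order of the LRP1 KO libraries was that of Tie1. The log2 difference was 0.67, with p = 0.114 by exact permutation (two-sided), where 4 libraries against 4 cannot go below 0.0286.

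Among the ligands, Angpt2 spanned the widest range. Angpt2 read 14.5, 13.1, 21.4 and 15.0 FPKM across WT libraries 1 to 4. The corresponding LRP1 KO values were 80.1, 28.0, 56.9 and 9.12 FPKM. LRP1 KO libraries 1, 2 and 3 were above WT, and library 4 was below every WT library. The means were 16.0 ± 3.69 and 43.5 ± 31.3 FPKM (SD, n = 4 each), so the SD in LRP1 KO was most of the mean. The log2 difference of 1.04 (SE 0.55, 95% interval -0.19 to 2.26) did not pass (limma adjusted p 0.211). It was 0.62 without LRP1 KO library 1. Mcph1, which surrounds Angpt2, was 2.50 to 2.79 FPKM in WT and 2.21 to 4.03 FPKM in LRP1 KO (limma adjusted p 0.365).

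Angpt1, the main agonist of TIE2, was low throughout, at 0.288, 0.477, 0.528 and 0.540 FPKM in WT and 0.173, 0.452, 0.482 and 0.507 FPKM in LRP1 KO. Its groups overlapped almost completely. It never reached 1 FPKM and was not tested across genes, and its log2 difference of -0.06 had p = 0.514 by exact permutation (two-sided).

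Angptl2 read 11.9, 16.1, 18.4 and 17.0 FPKM across WT libraries 1 to 4. The corresponding LRP1 KO values were 8.75, 14.7, 14.3 and 14.6 FPKM. LRP1 KO library 1, with the highest endothelial markers and the lowest fibroblast markers, had the lowest value, and the other 3 lay within the WT range. WT library 1 was likewise the lowest of WT. The means were 15.9 ± 2.77 and 13.1 ± 2.90 FPKM (SD, n = 4 each), with a log2 difference of -0.27 (SE 0.18, 95% interval -0.67 to 0.13, limma adjusted p 0.307). Ralgps1 around it was 1.06 to 1.67 FPKM in WT and 1.05 to 1.67 FPKM in LRP1 KO (limma adjusted p 0.970).

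**Figure D1:**
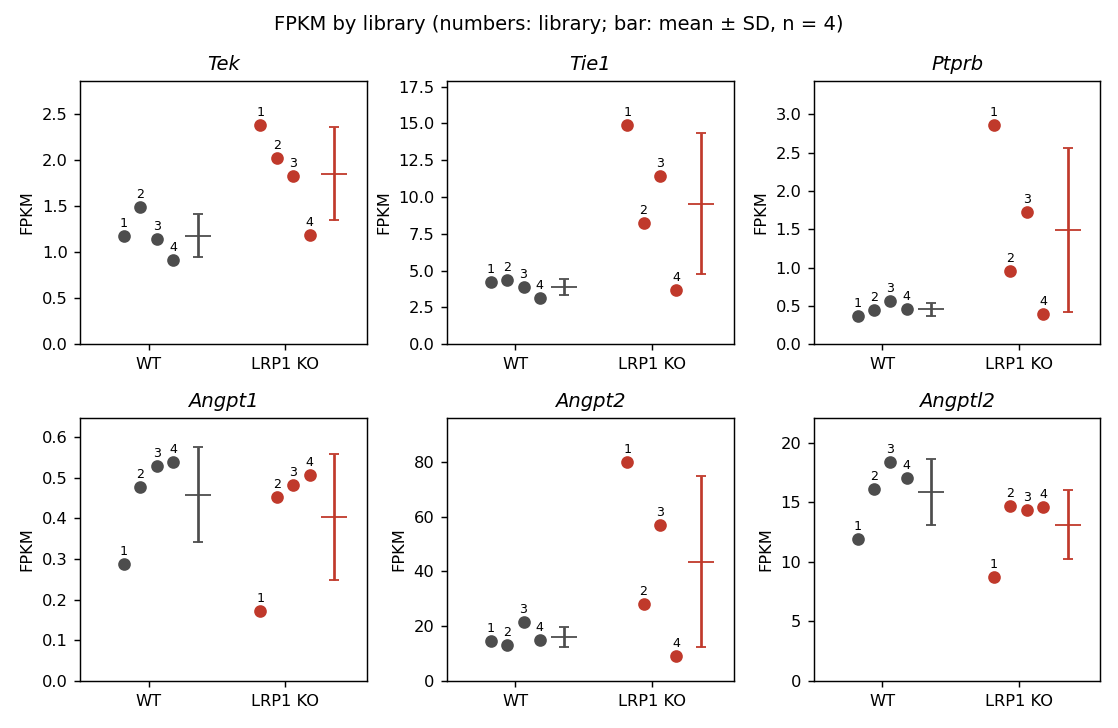
FPKM of the 6 genes (vertical axes, linear from 0) in the 4 WT and 4 LRP1 KO libraries. Points are libraries with their numbers, and bars give the mean ± SD; Tie1, Tek, Ptprb and Angpt2 are high in LRP1 KO libraries 1 to 3 and low in library 4, where Angpt2 is 9.12 FPKM against 13.1 to 21.4 FPKM in WT.

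With all 8 libraries weighted equally, limma called 0 of the 4 at an adjusted p under 0.05, where it called 13.6% of the 11389 genes tested. At an unadjusted p under 0.05 there were 2, Tie1 and Tek, where 33.7% of the genes tested had one. The groups overlapped for each of the 6 genes, and they did not overlap for 19.6% of all genes tested. The calls of Tie1, Angpt2 and Tek depended on LRP1 KO library 4. Without it, 3 of the 4 tested genes were called higher, against 12.3% of 11297 genes called higher in that fit. Tie1 then differed by 1.33 (SE 0.17, limma adjusted p 0.00145, alternatives spanning 0.00145 to 0.984), Angpt2 by 1.62 (SE 0.31, adjusted p 0.00713, range 0.00713 to 0.962) and Tek by 0.50 (SE 0.11, adjusted p 0.0136, range 0.0136 to 0.943). Ptprb, tested in a table without the filter on low values and without that library, differed by 0.91 (SE 0.21, limma adjusted p 0.0309, range 0.0309 to 0.910), where 8.9% of 17941 genes were called higher. Angptl2 was not called in that fit, at -0.33 (limma adjusted p 0.232, range 0.0632 to 0.973). Keeping library 4 but weighting each library by its fit to its group gave the same 3 calls, Tie1, Angpt2 and Tek, against 12.4% of genes called higher.

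The endothelial markers moved with these genes from library to library. Tie1, Angpt2 and Ptprb ranked the LRP1 KO libraries in the order 1, 3, 2, 4, as did 15 of the 18 endothelial markers and 8.46% of all genes tested. Tek ranked them 1, 2, 3, 4. Angpt1 ranked them in the reverse order, 4, 3, 2, 1, and Angptl2 in the order 2, 4, 3, 1. Cdh5, which encodes VE-cadherin, a substrate of VE-PTP, was 8.87 to 11.2 FPKM in WT and 47.3, 21.5, 33.9 and 8.56 FPKM in LRP1 KO. Of 7 lymphatic endothelial markers, Prox1, Lyve1, Flt4, Mmrn1 and Reln also ranked the LRP1 KO libraries 1, 3, 2, 4. Pdpn and Ccl21a did not. For Prox1, Lyve1, Flt4 and Mmrn1, library 4 was below every WT library, as for Angpt2.

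Per unit of Cdh5, 3 of the genes varied less between libraries than their levels did. Tie1 over Cdh5 was 0.345 to 0.471 in WT and 0.315, 0.384, 0.335 and 0.427 in LRP1 KO, a spread of 1.49-fold over 8 libraries, while the Tie1 level itself spread 4.76-fold. Ptprb over Cdh5 was 0.0403 to 0.0521 in WT and 0.0445 to 0.0606 in LRP1 KO, a spread of 1.5-fold against 7.91-fold for its level. Angpt2 over Cdh5 was 1.40 to 1.91 in WT and 1.70, 1.30, 1.68 and 1.07 in LRP1 KO, a spread of 1.79-fold against 8.78-fold, with LRP1 KO libraries 2 and 4 below every WT library. Cdh5 was also among the 3 genes most like Angpt2, so this narrow ratio partly restates that likeness.

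Tek was different in this respect. Tek over Cdh5 was 0.131, 0.159, 0.101 and 0.103 in WT, and 0.0503, 0.0938, 0.0535 and 0.138 in LRP1 KO. The 3 LRP1 KO libraries with high endothelial markers had ratios below every WT library, and library 4 was within the WT range. The ratio spread 3.17-fold, more than the Tek level itself (2.60-fold). Tek over Tie1 was likewise lower in those 3 libraries than in any WT library, at 0.279 to 0.339 in WT and 0.160, 0.244, 0.160 and 0.323 in LRP1 KO. With Pecam1 in place of Cdh5, Tie1 spread 1.33-fold, Ptprb 1.73-fold, Angpt2 1.80-fold and Tek 2.82-fold. These ratios are descriptions of 8 libraries and were not tested. Some macrophages express Tek, and the summed macrophage markers were 358.4, 552.1, 220.3 and 488.2 FPKM in LRP1 KO libraries 1 to 4. Their part in the Tek values was not tested.

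**Figure D2:**
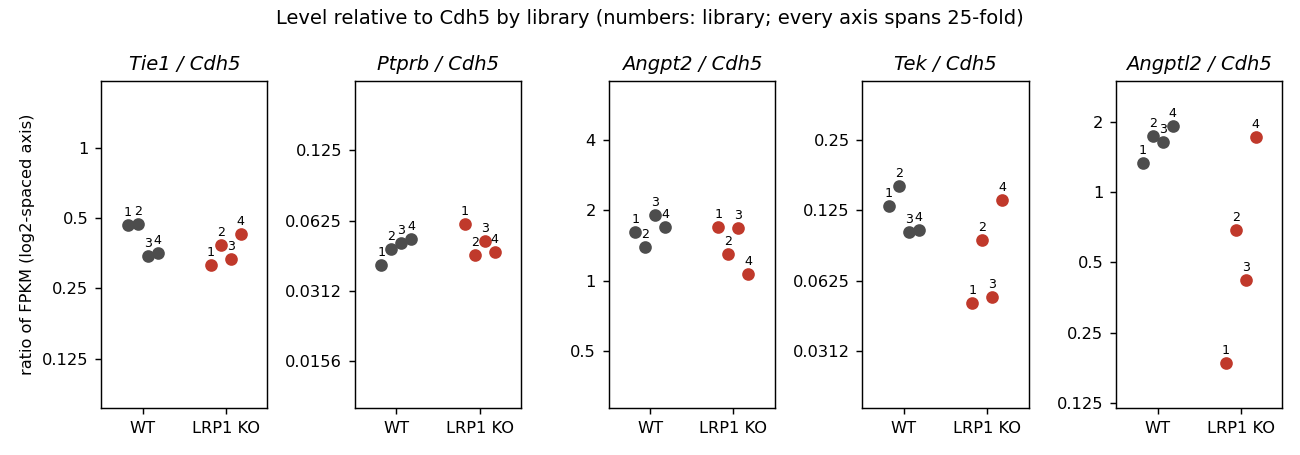
FPKM of Tie1, Ptprb, Angpt2, Tek and Angptl2 divided by that of Cdh5 (vertical axes, log-spaced, each spanning 25-fold so that spreads can be compared by eye) in WT and LRP1 KO libraries, numbered. Tie1, Ptprb and Angpt2 stay within 1.79-fold over the 8 libraries, while Tek spreads 3.17-fold and Angptl2 10.4-fold.

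Angptl2 kept its proportion to a stromal gene instead. Angptl2 over Pdgfrb, which encodes the PDGF receptor of mural cells and fibroblasts, was 0.203 to 0.243 in WT and 0.210 to 0.239 in LRP1 KO, a spread of 1.2-fold. Pdgfrb was also the gene most like Angptl2 and was paired with it for that reason, so the narrow ratio restates the choice.

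Entering the mean log2 level of the endothelial markers as a covariate brought the differences of the receptors close to 0, at 0.01 (SE 0.11) for Tie1 and 0.05 (SE 0.14) for Tek. Ptprb, without the filter, was at -0.09 (SE 0.14). Angpt2 turned to -0.60 (SE 0.22), with an unadjusted p of 0.0251 that did not survive adjustment (limma adjusted p 0.361). With the fibroblast markers as the covariate, Tie1 was at 0.40 (SE 0.22), Tek at 0.21 (SE 0.15), Angpt2 at 0.05 (SE 0.37) and Angptl2 at 0.02 (SE 0.14). Both covariates differ between the genotypes themselves, so these fits cannot tell a difference in cell makeup from a difference within cells.

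**Figure D3:**
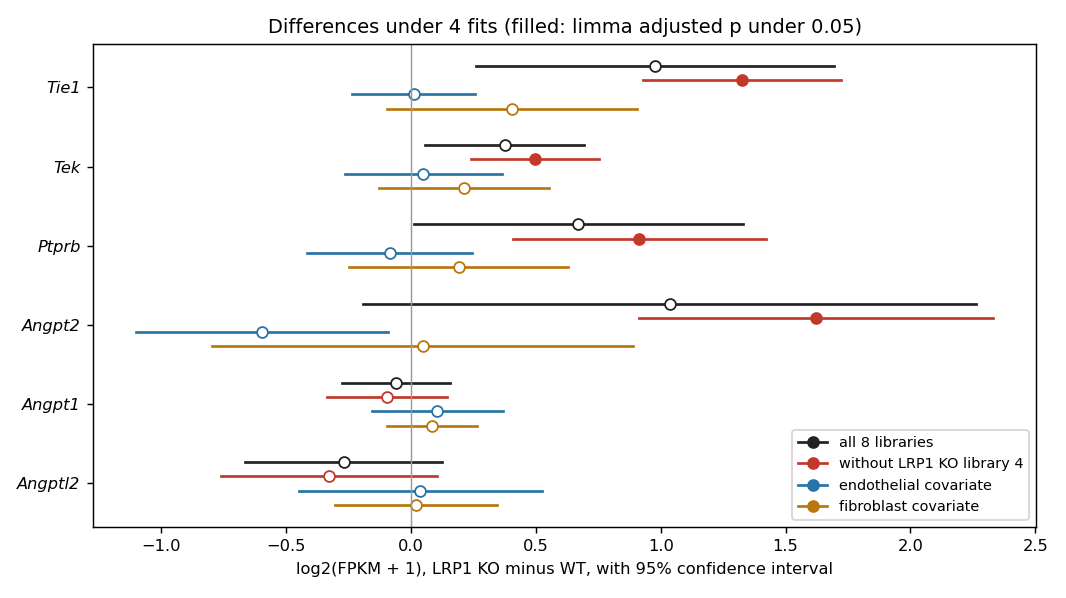
Difference LRP1 KO minus WT on the log2(FPKM + 1) scale (horizontal axis) with its 95% confidence interval for the 6 genes under 4 fits, filled where the limma adjusted p is under 0.05; Angpt1 and Ptprb come from the table without a filter on low values. Filled points occur only in the fit without LRP1 KO library 4, for Tie1 (1.33), Tek (0.50), Ptprb (0.91) and Angpt2 (1.62).

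The genes most like each tested gene were those with the smallest root mean square difference of mean-centred log2(FPKM + 1) over the 8 libraries. For Tie1 they were Gimap6 (0.101), Egfl7 (0.108), which encodes a factor secreted by endothelium, and Stab1 (0.121), a scavenger receptor of sinusoidal endothelium and macrophages. For Angpt2 they were Myct1 (0.191), Cdh5 (0.241) and S1pr1 (0.247), a sphingosine-1-phosphate receptor of endothelium. For Tek they were Csrp2 (0.0619), D8Ertd82e (0.0671) and Foxc1 (0.0822). Csrp2 encodes a LIM-domain protein best known from smooth muscle, and Foxc1 a forkhead factor. For Angptl2 they were Pdgfrb (0.0875), Figf (0.0888), which encodes VEGF-D, and Pcolce (0.0890), an enhancer of procollagen processing.

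Of 73 further genes of the pathway, 68 were in the table and 59 were tested; the others were not analysed here or were below the filter. Of these, 5 were called higher and 6 lower in LRP1 KO, against 6.27% and 7.31% of all genes tested, and the median log2 difference was 0.04 against -0.01 over all genes. Without LRP1 KO library 4 the counts were 15 and 14, against 12.3% and 13.9% of all genes in that fit, with a median of 0.06. With the endothelial marker level as a covariate none of the 11 called genes passed, and with the fibroblast marker level Itga5 alone did. The counts by list below are descriptions, each to be read beside the shares over all genes, and no list was tested against the others.

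None of the 5 ligand relatives tested was called, where 13.6% of all genes were, and their median log2 difference was -0.32 against -0.01 over all genes. Without LRP1 KO library 4, 2 of the 5 were called lower, against 13.9% of all genes, with a median of -0.54. Angpt4, the third angiopoietin, was 1.08 to 1.70 FPKM in WT and 0.389, 0.931, 0.618 and 1.5 FPKM in LRP1 KO (limma adjusted p 0.140). Svep1, a matrix protein reported to bind TIE1, was 7.04 to 17.0 FPKM in WT and 2.94 to 10.5 FPKM in LRP1 KO (limma adjusted p 0.105). Angptl4 stayed within 8.09 and 13.6 FPKM in all libraries.

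Among co-receptors, sheddases and phosphatases, 1 of 7 tested genes rose and 1 fell, where 6.27% and 7.31% of all genes did. Itga5, the fibronectin receptor subunit that can associate with TIE2, rose from 36.7 to 45.4 FPKM in WT to 56.6 to 74.5 FPKM in LRP1 KO, by 0.70 (SE 0.10, limma adjusted p 0.00459). The groups did not overlap, and it passed in each of the 8 fits that left out 1 library. With the endothelial covariate it was 0.50 (limma adjusted p 0.0972, where its alternatives spanned 0.000706 to 0.0972). Adam17, a sheddase of membrane receptors, fell from 19.7 to 23.9 FPKM to 14.5 to 18.7 FPKM, by 0.40 (SE 0.08, limma adjusted p 0.0193), and was lost in 4 of those 8 fits, without WT library 2 or LRP1 KO library 1, 2 or 3 (adjusted p 0.0573 to 0.0615). Without LRP1 KO library 4, 4 of the 7 genes were called higher and 2 lower, against 12.3% and 13.9% of all genes.

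Of the 9 adaptors tested, 1 rose and 1 fell, against 6.27% and 7.31% of all genes. Iqgap1 rose by 0.43 (SE 0.12, limma adjusted p 0.0448) and Shc1 fell by 0.34 (SE 0.09, limma adjusted p 0.0363). In the PI3K, AKT and FOXO arm, 3 of 12 fell and none rose, against 7.31% and 6.27% of all genes. The PI3K regulatory subunit Pik3r1 fell by 0.27, Foxo1 by 0.28 and Foxo4 by 0.36 (limma adjusted p 0.0331, 0.0278 and 0.0481). These 5 calls were each lost in 6 or 7 of the 8 fits without 1 library, and all were kept without LRP1 KO library 4. With the endothelial covariate the differences were 0.26 for Iqgap1, -0.12 for Shc1, -0.16 for Pik3r1 and -0.21 for both Foxo1 and Foxo4. Akt1 was 95.5 to 112 FPKM in WT and 114 to 137 FPKM in LRP1 KO (limma adjusted p 0.0574). Without LRP1 KO library 4, 6 of the 12 genes of the PI3K, AKT and FOXO arm were called lower and 1 higher. Of the 9 adaptors, 1 was then called lower and 1 higher. The shares of all genes in that fit were 13.9% and 12.3%.

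Of 6 tested partners of VE-PTP and effectors at junctions, 1 fell and none rose, against 7.31% and 6.27% of all genes. Plcg1 fell from 29.4 to 34.9 FPKM to 25.1 to 26.2 FPKM, by 0.34 (SE 0.06, limma adjusted p 0.0118), and it passed in each fit without 1 library. Without LRP1 KO library 4, 3 of the 6 genes were called higher and 2 lower, against 12.3% and 13.9% of all genes. Kdr, which encodes VEGFR2, was 5.08 to 5.98 FPKM in WT and 6.16 to 9.74 FPKM in LRP1 KO (limma adjusted p 0.0806).

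Among 9 tested factors placed upstream of Tek or Angpt2, 3 rose and none fell, against 6.27% and 7.31% of all genes. Gata2 rose by 0.86 (SE 0.23, limma adjusted p 0.0365), from 1.53 to 2.20 FPKM to 6.69, 4.29, 4.31 and 2.24 FPKM. Ets1, an ETS factor, rose by 0.47 (SE 0.12, limma adjusted p 0.0340), and Epas1, which encodes HIF-2alpha, by 0.69 (SE 0.18, limma adjusted p 0.0338). In each, library 4 was the lowest of the LRP1 KO libraries, and the calls were lost in 6 or 7 of the 8 fits without 1 library, with Gata2 kept only without LRP1 KO library 4. Of the 3, Gata2 alone ranked the LRP1 KO libraries as most endothelial markers did, while Ets1 and Epas1 were highest in library 3 (17.5 and 24.1 FPKM). With the endothelial covariate the differences were 0.23 for Gata2, 0.22 for Ets1 and 0.45 for Epas1, and none passed. None of 11 tested Weibel-Palade body genes, which serve the granule that stores ANGPT2, was called, where 13.6% of all genes were. Without LRP1 KO library 4, 2 were called higher and 1 lower, against 12.3% and 13.9% of all genes. Vwf, its main cargo, was 0.748 to 2.33 FPKM in WT and 2.12, 2.55, 1.30 and 2.63 FPKM in LRP1 KO (limma adjusted p 0.317).

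**Figure D4:**
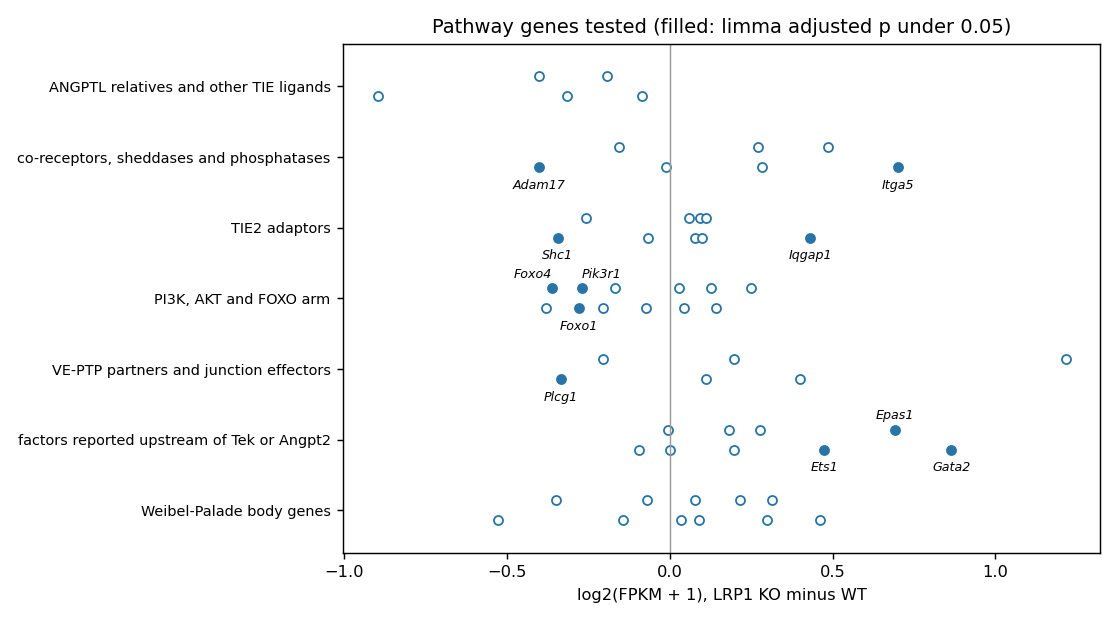
Difference LRP1 KO minus WT on the log2(FPKM + 1) scale (horizontal axis) for the 59 tested pathway genes, grouped by role (vertical axis) and filled and named where the limma adjusted p is under 0.05. The 5 genes called higher are Itga5, Iqgap1, Gata2, Ets1 and Epas1, and the 6 called lower are Adam17, Shc1, Pik3r1, Foxo1, Foxo4 and Plcg1.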

How the data were processed

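The submitters' processing notes name TopHat2 and Cufflinks with genome build mm10. The study's methods name STAR, featureCounts and edgeR, which do not give values of this kind. The deposited values were taken as FPKM that the authors had quantile normalized across the 8 libraries, since the columns share 1 highest value and nearly 1 sum. The unit is inferred, and depth is unknown. From these, log2(FPKM + 1) was computed, genes with at least 1 FPKM in at least 4 libraries were kept (11389 of 22520), and LRP1 KO was compared with WT with limma 3.58.1 in R 4.3.3, variances following the mean level, Benjamini-Hochberg adjusted over all tested genes. The count-based test of the study was not used, because the table holds no counts. Genes below the filter had an exact permutation test (scipy 1.17.1). The fit was checked on simulated data. Groups came from sample titles. Members of the family, the pathway lists and markers were chosen with earlier results of these data known. Genes named are the 6, Lrp1, pathway genes past the test (at most 4 per list), markers beside results and the 3 genes most like each tested gene; Angpt4, Svep1, Angptl4, Akt1, Kdr, Vwf, Flt1, Mcph1 and Ralgps1 were added after their values were seen. Alternatives were another pseudocount (0.1), no filter, rescaled libraries, each library left out, a replicate block, 2 covariates, another variance model and library weights. For Ptprb and Angpt1, fits combining no filter with another choice were added after seeing the data.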

Additional observations from a re-analysis of the deposited data

Results flagged for a closer look

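Libraries that stood far from the other 3 of their group were looked for in 72 groups of 4, as a gap to the nearest library, divided by the group's range, above Dixon's 95% critical value. There were 6, and chance alone sets apart about 5% of such groups. LRP1 KO library 1 was the lowest of its group for Angptl2 (8.75 FPKM against 14.3 to 14.7, gap 0.927 of the range) and for Angpt1 (0.173 FPKM against 0.452 to 0.507, gap 0.835). WT library 1 was also the lowest of WT for Angptl2 (11.9 FPKM) and Angpt1 (0.288 FPKM), though not set apart by this rule. WT library 3 was the highest of WT for Ralgps1 (1.67 FPKM against 1.06 to 1.16, gap 0.838) and for the ratio of Angpt2 to Mcph1 (8.56 against 5.09 to 5.66, gap 0.836). WT library 2 was the highest of WT for Foxo1 (5.06 FPKM against 4.78 to 4.83, gap 0.841) and Foxo4 (15.7 FPKM against 11.7 to 12.3, gap 0.868).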

How the results depend on the processing

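Leaving out 1 library at a time gave log2 differences of 0.73 to 1.33 for Tie1, 0.29 to 0.50 for Tek, 0.62 to 1.62 for Angpt2, 0.42 to 0.91 for Ptprb, -0.39 to -0.10 for Angptl2 and -0.12 to 0.02 for Angpt1, whose sign turned without LRP1 KO library 1 (0.0249). The number of the 4 tested genes called ran from 0 to 3 and that of pathway genes from 2 to 29, both highest without LRP1 KO library 4. The share of all genes called ran from 3.83% to 26.2% over the same fits, also highest without that library. With library weights Tie1 (1.27), Tek (0.51) and Angpt2 (1.41) passed, so 3 of the 4 tested genes and 26 pathway genes were called, with 26.4% of all genes. LRP1 KO library 4 had the lowest weight in that fit. With the endothelial covariate Angpt2 turned to -0.60, Angptl2 to 0.0377, Ptprb (no filter) to -0.086 and Angpt1 (no filter) to 0.11, and limma called 0 pathway genes (3 at an unadjusted p under 0.05) and 1.41% of all genes. Plcg1 stayed at -0.33 there, with an SE of 0.0905 against 0.0613. With the fibroblast covariate Angptl2 turned to 0.0197 and Angpt1 (no filter) to 0.0834, and 1 pathway gene and 3.01% of all genes were called. Without a filter 5 pathway genes and 6.45% of all genes were called. The cause was not tested. A pseudocount of 0.1 and rescaled libraries changed no call among the 6 genes, and another variance model none among the 4 tested, though the pseudocount moved Tek to 0.59, Ptprb to 1.23 and Angpt1 to -0.19. Replicate numbers were not taken as pairs, since no label ties them and deviations of same-numbered libraries correlated at 0.158, 0.141, 0.340 and -0.312 (best partner both ways for numbers 1 and 3). With the replicate block 0 of the 4 tested genes and 9 pathway genes were called, against 11 without it, and 8.89% of all genes against 13.6%. Of the 11, 4 were lost (Iqgap1, Foxo1, Foxo4 and Ets1), and 2 others were gained. Angptl2 then had an adjusted p of 0.0632 by limma, with an SE of 0.0702 against 0.176. For Ptprb and Angpt1 the block, weights and variance model were not run. With 3 libraries against 4 the exact test cannot go below 0.0571.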

Other observations

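Of the 18 endothelial markers, 3 did not rank the LRP1 KO libraries as Tie1, Angpt2 and Ptprb did. They were Kdr (9.07, 6.16, 9.74 and 6.28 FPKM in libraries 1 to 4), Flt1 (16.9, 19.4, 19.8 and 18.6 FPKM, against 13.2 to 19.0 FPKM in WT) and Vwf. Flt1 and Kdr encode VEGF receptors and Vwf encodes von Willebrand factor, and none passed the test (limma adjusted p 0.205, 0.0806 and 0.317). Most endothelial markers did not pass either. Of 16 tested, 2 were called higher, against 6.27% of all genes, and Cdh5 and Pecam1 were not called (limma adjusted p 0.0766 and 0.0814).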
